A study of Mus musculus with 2 samples.

Results

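MoDC and Mono are the names the submitters gave to 2 small classes of recruited myeloid cells, monocyte-derived dendritic cells and monocytes, in single-cell RNA profiles of the mouse aorta. Members were all barcodes that the deposited annotation tables place in either class: 57 MoDC and 28 Mono, 85 of 5584 annotated cells and of 7673 barcodes. The aortae came from male Apoe-/- mice on C57BL/6, which lack apolipoprotein E and develop atherosclerosis, so both groups carry the deletion. Diabetic mice had received streptozotocin, a toxin of insulin-producing beta cells, at 55 mg/kg per day for 5 days from 6 weeks of age, and control mice the citrate vehicle. They were followed for 10 weeks and were 17 weeks old at collection. Tissue of 4 mice was pooled into 1 library per group, after digestion and sorting of live cells, so no mouse-to-mouse spread can be measured and no test between groups was made. The series concerns the transcription factor AP-1 in atherosclerosis of diabetes.

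Circulating monocytes enter inflamed arteries through the chemokine receptor Ccr2 and can mature there into macrophages or into antigen-presenting cells that resemble dendritic cells. The latter load peptides on MHC class II, whose chains (H2-Aa, H2-Ab1, H2-Eb1) travel with the invariant chain Cd74 and are loaded with the help of the H2-DM proteins. Plac8 is a small cysteine-rich protein abundant in blood monocytes.

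The control library held 27 MoDC and 9 Mono, the diabetic library 30 and 19. MoDC made up 0.882% of annotated control cells (95% Clopper-Pearson interval 0.582 to 1.28) and 1.19% of diabetic cells (0.803 to 1.69). Mono made up 0.294% (0.135 to 0.558) and 0.753% (0.454 to 1.17), so for each class the intervals of the 2 libraries overlapped. Both shares rest on the denominator. Among the myeloid classes alone (Mac, Foam cells, MoDC and Mono), MoDC were 4.65% (3.08 to 6.69) of control and 10.2% (6.97 to 14.2) of diabetic cells and Mono 1.55% (0.711 to 2.92) and 6.44% (3.92 to 9.88), intervals that do not overlap, beside a Mac share of all annotated cells of 16.7% and 9.07%. The 2 classes gave 231848 control and 304042 diabetic UMIs (unique transcript counts). The median per cell was 6593 and 7039.5 UMIs in MoDC and 3894 and 4171 in Mono. Every interval here covers counting error only, not differences between cells or mice. No MoDC barcode occurred in both libraries. Of 15 barcodes that did, 2 were Mono in 1 of them.

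The 4 genes that mark the classes were present in both, at different levels. Levels are UMIs of a gene per 1e+06 UMIs of the class (CPM). Cd74 stood at 42367 CPM in control and 44209 in diabetic MoDC, at 16185 and 7221 in Mono, and at 22727 and 16032 in Mac. H2-Ab1 (GRCm38, chr17:34257689-34269419) followed the same order, with 14081 and 14127 CPM in MoDC, 5068 and 1781 in Mono, and 6978 and 4741 in Mac. MoDC were thus the highest of the 3 classes for both genes in each library, and Mono the lowest. In the smooth muscle class VSMCs-2, which should lack these genes, Cd74 was 85.1 and 18.0 CPM and H2-Ab1 46.0 and 9.44.

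Ccr2 (chr9:124101950-124113557) gave few UMIs: 36 control and 38 diabetic in MoDC, 12 and 6 in Mono, against 82 and 73 in the far more numerous Mac. It was found in 15 of 27 and 16 of 30 MoDC, in 5 of 9 and 4 of 19 Mono, and in 10.8% and 14.4% of Mac. After each cell was thinned to 1000 UMIs, Ccr2 remained in 18.5% and 13.3% of MoDC, 22.2% and 0% of Mono and 2.82% and 5.53% of Mac. VSMCs-2 held 0 and 2 Ccr2 UMIs. Plac8 (chr5:100553725-100572245) separated the classes in the other direction from class II, at 6231 and 5147 CPM in Mono, 373 and 662 in MoDC and 174 and 289 in Mac. Apoe, the deleted gene, had 0 UMIs in all 85 cells and 13 and 4 in Mac.

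The class names were checked against further markers. Mono held the monocyte genes Ly6c2 (41 and 60 UMIs), Chil3 (23 and 91) and Hp, the plasma protein haptoglobin (35 and 50). Ly6c2 was found in 6 of 9 control and 8 of 19 diabetic Mono, Chil3 in 3 and 9, and Hp in 13 of all 28. Treml4, Ace and Cx3cr1, which mark the patrolling kind of monocyte, gave 1 and 4, 1 and 8, and 1 and 1 UMIs. The whole list of 9 patrolling genes gave 45 and 160 UMIs in Mono, of which Gngt2 made up 25 and 102. Against Mac, 5 of the 9 were higher in Mono (Ace, Treml4, Pglyrp1, Adgre4 and Gngt2), with a median log2 ratio of 2.22. Genes are called here by the rule for classes given below. Over all genes measured, 3.6% were higher in Mono than in Mac and 5.43% lower. For MoDC, 6.37% were higher than in Mono and 3.05% higher than in Mac. Of 10 listed foam cell genes, 8 were also higher in Mono than in Mac and none lower. They summed to 826 and 1256 UMIs in Mono, led by Spp1 (368) in control and Lgals3 (777) in diabetic cells. A single control cell held 315 of these Spp1 UMIs. MoDC held Cd209a, a lectin of monocyte-derived and type 2 dendritic cells, with 185 and 140 UMIs in 12 and 19 cells, and none in Mono. All 9 listed genes of these dendritic types were higher in MoDC than in Mono. Against Mac 5 of the 9 were higher (Cd209a, Tnip3, Klrd1, H2-DMb2 and Clec4b1) and none lower. Of the conventional dendritic genes, Flt3 had 2 and 9 UMIs in MoDC and Zbtb46 1 and 2. The shared list of 5 such genes summed to 20 and 36 UMIs, led by Itgax (10) in control and Dpp4 (13) in diabetic cells, and both of these were higher than in Mac, 2 of 3 measured. Of 5 measured genes of type 1 dendritic cells, Batf3, Naaa and Cadm1 were higher than in Mac and none lower, and Xcr1 or Clec9a was found in 3 of 27 and 6 of 30 MoDC. Single MoDC carried other programmes. Siglech, a plasmacytoid marker, reached at least 2 UMIs in 3 control cells and 1 diabetic cell, and 1 cell in each library held 61 of the 70 and 24 of the 43 UMIs of Ccr7, the receptor of dendritic cells that migrate to lymph nodes.

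**Figure D1:**
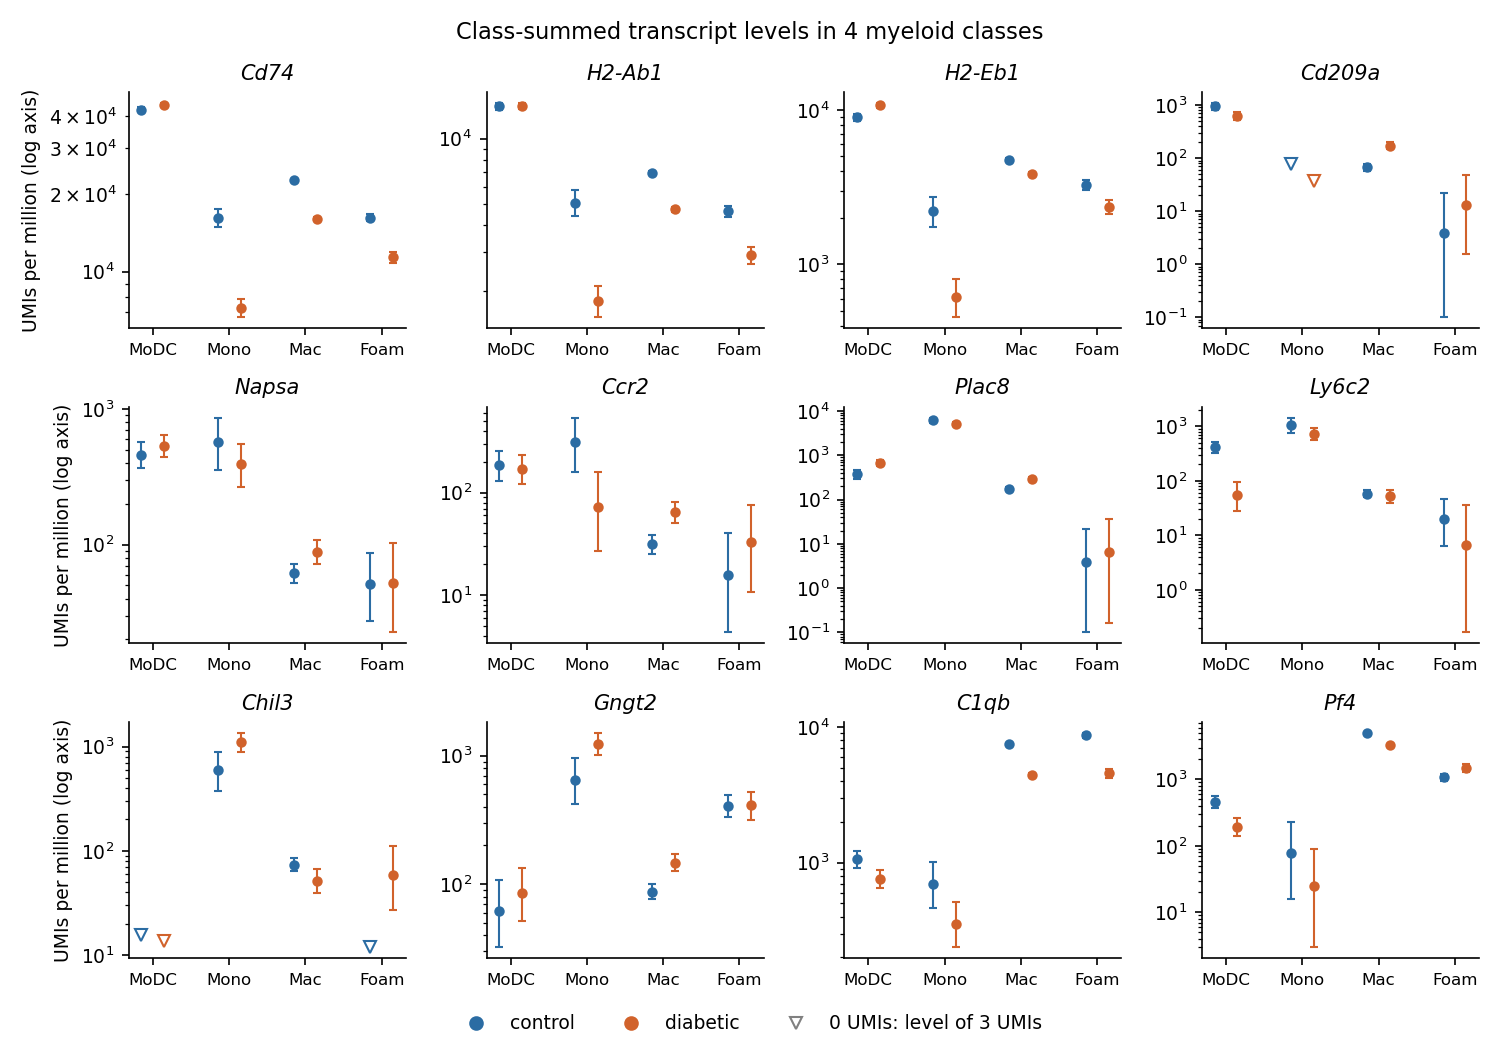
Levels (CPM, log axis) of 12 genes in MoDC, Mono, Mac and Foam cells, 1 point per library with its 95% counting interval, and triangles for 0 UMIs drawn at the level of 3 UMIs. Class II genes are highest in MoDC, Plac8 and monocyte genes in Mono, with Plac8 at 6231 and 5147 CPM there.

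The class II genes sit close together on chromosome 17, and their promoters share short elements known as the X and Y boxes, at which the transactivator Ciita is recruited. Promoter windows of 250 bases upstream of the start came from RefSeq (GRCm38.p6) for 11 of the 14 genes of the class II list. Both strands were searched for CTGATTGG (Y box) and TAGCAAC (X box core), whose matches did not overlap in any window of the list. CTGATTGG occurred in 4 of the 11 windows and in 3.83% of 32851 windows of the same length, and TAGCAAC in 3 of the 11 and 3.16% of all. Shown are the windows of H2-Aa (chr17:34287824-34288073, minus strand), H2-Eb1 (chr17:34305617-34305866, plus strand) and H2-Oa (chr17:34092129-34092378, plus strand), the 3 genes higher in MoDC than in Mono and in Mac that have a match, 5′ to 3′ on the strand of the gene with matches in capitals. The Y box begins 51, 62 and 46 bases before the start, and the X box core of H2-Eb1 93 bases before it. These are matches of letters only.
H2-Aa: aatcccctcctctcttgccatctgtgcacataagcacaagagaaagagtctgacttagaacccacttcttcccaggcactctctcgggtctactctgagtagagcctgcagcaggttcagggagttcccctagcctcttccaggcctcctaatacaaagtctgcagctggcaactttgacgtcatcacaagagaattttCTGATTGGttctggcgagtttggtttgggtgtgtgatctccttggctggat
H2-Eb1: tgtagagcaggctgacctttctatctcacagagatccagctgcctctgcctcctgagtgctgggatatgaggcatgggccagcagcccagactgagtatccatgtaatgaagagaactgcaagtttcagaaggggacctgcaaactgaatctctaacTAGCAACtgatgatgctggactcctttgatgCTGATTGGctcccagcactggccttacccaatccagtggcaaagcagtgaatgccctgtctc
H2-Oa: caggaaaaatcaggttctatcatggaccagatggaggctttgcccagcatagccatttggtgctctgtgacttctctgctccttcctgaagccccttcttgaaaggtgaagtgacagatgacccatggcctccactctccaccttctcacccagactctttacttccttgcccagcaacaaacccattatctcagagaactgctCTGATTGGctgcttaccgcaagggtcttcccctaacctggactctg

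Class II genes were mostly higher in MoDC than in Mono, and several genes of blood monocytes were lower. A gene counted as higher or lower where the ratio of CPM over both libraries was at least 2-fold, its 95% interval excluded 1 and each library had the same direction. Since the submitters drew the classes from these counts, such differences are descriptions. Of 2482 genes with at least 20 UMIs, 158 (6.37%) were higher in MoDC and 215 (8.66%) lower. With trimmed mean scaling the split was 257 and 134. Of 11 class II genes measured, 8 were higher in MoDC, with a median log2 ratio of 2.19 against -0.07 over all genes tested. The control library alone gave a median of 1.43 and the diabetic library 2.51. H2-Eb1 was 8.82 times higher (7.43 to 10.5), the peptide-loading chain H2-DMb2 18.5 times (5.00 to 154), H2-Aa 4.58 times and H2-DMa 3.13 times. Lgmn, the lysosomal protease legumain, was the exception, at 0.259 of its Mono level.

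Several of the genes that stood furthest apart were absent or nearly absent from Mono. Lyz1, a lysozyme, had 931 control and 406 diabetic UMIs in MoDC and 0 in Mono, so it was at least 130-fold higher (3 UMIs assumed over the 28 Mono). Cd209a was at least 31.5-fold and Mgl2, another lectin, at least 20.4-fold higher. Mgl2 was not particular to MoDC, at 508 CPM there and 651 in Mac. Fcrls, a receptor-like scavenger protein, had 220 UMIs in MoDC and 1 in Mono. Metallothionein Mt2 was 20.4 times, the activation marker Cd83 11.7 times and the lectin Clec4b1 29.9 times higher. Cd2, an adhesion molecule, and Nr4a3, an orphan nuclear receptor induced on activation, had 60 and 56 UMIs in MoDC and none in Mono.

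C-type lectins split evenly: of 12 measured, 5 were higher in MoDC (Clec4b1, Clec10a, Cd209a, Mgl2, Mrc1) and 5 in Mono (Clec4a1, Clec4a3, Clec4d, Clec4e, Clec4n). Clec4e, the Mincle receptor, had 24 and 29 UMIs in MoDC and 48 and 43 in Mono, a ratio of 0.169. Of 13 chemokines 5 were higher in MoDC, but single cells carried 3 of these, with 70.4% of Ccl17, 61.3% of Ccl5 and 95.3% of Cxcl1 UMIs. Cxcl2, a neutrophil chemokine, was 10.6 times higher, with 32.0% of its UMIs in 1 cell. AP-1 subunits had few counts, and 2 of 5 were higher in MoDC: Fosb (32 and 48 UMIs against 2 and 6 in Mono, ratio 2.91) and Fosl2 (14 and 18 against 1 and 1, ratio 4.65).

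Mono in turn held more of the genes of blood monocytes and of lipid handling. Hp had 1 UMI per library in MoDC and 35 and 50 in Mono. Gngt2, a G protein subunit, had 12 and 19 UMIs in MoDC and 25 and 102 in Mono (ratio 0.0709, 0.0463 to 0.106), and Plac8 had a ratio of 0.0960. Slpi, a protease inhibitor of mucosal and myeloid cells, Lst1, the matrix protein Thbs1, the receptor Clec4d, Msrb1, F10 (coagulation factor X), Smpdl3a, Sirpb1c and Gstm1 completed the 12 genes that stood furthest apart on that side, with Mono levels 7.17 to 22.1 times those of MoDC. Of 9 genes of lipid uptake and efflux, 8 were lower in MoDC (median log2 ratio -1.52), among them the lipid-droplet coat Plin2 (0.207), the fatty acid carrier Fabp5 (0.178) and the lipid sensor Trem2 (0.120). Lpl, lipoprotein lipase, was the one that was higher, at 6.64 times. Of the Mono Fabp5 UMIs, 75 lay in 1 diabetic cell and 50 in another, each with 0 Plac8 UMIs. The comparison was not repeated without the Mono poor in Plac8. Of 16 cathepsin and lysosome genes, 6 were lower in MoDC and none higher, with Ctsd at 0.280 and the tetraspanin Cd63 at 0.140 of the Mono level. Interferon-response genes Irf7, Ifi27l2a and Ifi204 were lower in MoDC, 3 of 7 measured.

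Against Mac, the large macrophage class (510 control and 229 diabetic cells), macrophage genes were lower in MoDC: all 8 of the pan-macrophage list, with a median log2 ratio of -2.80 and sums of 528 control and 440 diabetic UMIs still present. Of 7574 genes with at least 30 UMIs, 231 (3.05%) were higher in MoDC and 1034 (13.7%) lower. With trimmed mean scaling these were 333 and 690. Mac held cells with other leukocyte and vascular markers: 272 of 510 and 144 of 229 had at least 2 UMIs from 2 genes of 1 such list, and S100a8, a neutrophil gene, gave 5143 and 3101 UMIs there. MoDC had 12 of 27 and 13 of 30 such cells, with T cell markers summing to 42 and 121 UMIs. Without these Mac cells, 4236 genes had enough UMIs, and 240 were higher in MoDC and 735 lower. Of these, 130 and 606 were also called with all Mac cells. Class II genes were again above, 8 of 12 with a median log2 ratio of 1.12 against -0.40 over all genes. H2-Aa, H2-Ab1 and H2-Eb1 were 2.15, 2.24 and 2.20 times higher, and each was found in 27 of 27 control and 29 of 30 diabetic MoDC.

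The genes furthest above Mac were Upb1, an enzyme of pyrimidine breakdown (28.1 times, 12.9 to 67.6, on 28 UMIs in MoDC), Lyz1 (13.1), fibronectin Fn1 (9.91), the eosinophil-type ribonuclease Ear2 (9.66) and Cd209a (7.86). Cd7, an immunoglobulin-family surface protein of lymphoid and some dendritic cells, was 8.27 times, the leukotriene receptor Ltb4r1 12.3 times and the aspartic protease Napsa 7.19 times higher. Aldh1a2, which makes retinoic acid, was 9.40 times higher over both libraries but 1.13 times in the diabetic one, Lpl 7.80, Glipr2 6.72 and Clec4b1 5.43 times. Ccr2 was 4.31 times (3.22 to 5.72) and Plac8 2.53 times the Mac level. Of 8 measured classical monocyte genes, 4 were higher in MoDC than in Mac (Ly6c2, Ccr2, Plac8, Ms4a4c) and 3 lower (Chil3, F13a1, Hp). A single control MoDC held 59 of the 80 control Ly6c2 UMIs and 33 of the 72 control Plac8 UMIs. Of the transcription factors, Batf3 (4.07) and Runx3 (2.42) were higher, while Maf (0.0654), a factor of the macrophage programme, and Cebpb (0.356) were lower.

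Complement and apoptotic-cell uptake had the lowest median against Mac of the function lists: 12 of 14 genes were lower, with a median log2 ratio of -3.30. C1qb, a chain of complement C1q, had 204 and 169 UMIs in MoDC against 19438 and 4992 in Mac, a ratio of 0.138. C1qc stood at 0.0651, the uptake receptor Mertk at 0.0567 and Stab1 at 0.0530. Chemokines Ccl12, Ccl7, Ccl8 and Ccl4 were 28.7 to 59.6 times lower, and 8 of 16 chemokines were lower with none higher. Rnase4, Fxyd2, Ms4a7, the ficolin Fcna, the selenium carrier Selenop, St3gal6 and Lyve1, a hyaluronan receptor of resident macrophages, were also among the 12 genes furthest below Mac. Fc receptors were lower in 4 of 5 cases and lipid genes in 8 of 14, with Lpl the single lipid gene that was higher. Of the 7 AP-1 subunits, Fos (0.450), Fosb (0.399), Jun (0.302) and Jund (0.347) were lower in MoDC than in Mac, and Junb (0.512), Fosl2 (0.598) and Fosl1 (0.694) had smaller differences below the size rule.

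Mono stood above Mac in monocyte and glycolysis genes and below it in those of resident macrophages. Of 7441 genes with at least 30 UMIs, 268 (3.6%) were higher and 404 (5.43%) lower, 9.03% in all. Plac8 was 26.4 times the Mac level (23.8 to 29.3), F10 33.6 times, Ms4a4c 18.6, Sirpb1c 18.6, Thbs1 13.9, Hp 12.7, Ifitm6 10.3, Gngt2 9.98 and Clec4e 9.35. Of 8 measured classical monocyte genes, 7 were higher in Mono than in Mac and 1, F13a1, was lower. Cd244, Cd177 and Sirpb1b, surface proteins of leukocytes, were 13.7 to 15.5 times higher on 12 to 18 UMIs in Mono. Of the function lists, glycolysis had the largest count on that side, 7 of 16 genes with a median log2 ratio of 0.88 against -0.14 over all genes. Among them the lactate exporter Slc16a3 was 6.52 times, enolase Eno1 3.61 times and pyruvate kinase Pkm 3.36 times the Mac level, while hexokinase Hk2 was lower (0.267). Of 15 antimicrobial and S100 genes 6 were higher, with Chil3 at 14.2 and S100a4 at 3.54 times, and 4 lower.

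In the opposite direction several genes of resident macrophages were nearly absent from Mono. Platelet factor Pf4 had 3 and 2 UMIs in Mono against 12905 and 3694 in Mac, 107 times lower. Mgl2, Ccl8, Ccl12 and Lyve1 had 0 UMIs in Mono and were at least 20-fold lower. The other genes furthest below Mac were Retnla, Ccl5, Folr2 (a folate receptor), Ccl7, Cxcl2, C1qa and C1qc, 23.9 to 95.5 times lower. Ccl5 is a T and NK cell chemokine too, and without the Mac cells that hold other types' markers its ratio was 0.305 on 1 Mono UMI. Complement and uptake genes were lower in 12 of 14 cases (median log2 ratio -3.02) and chemokines in 10 of 16. Class II, higher in MoDC, was lower in Mono: 6 of 12 genes, median log2 ratio -1.11. That median was -0.41 from the control library alone and -0.57 without the Mono with fewer than 10 Plac8 UMIs. Lipid genes, mostly lower in MoDC, were higher in 5 of 14 cases (Abcg1, Plin2, Fabp5, Npc2, Soat1), with Fabp5 at 10.9 times the Mac level. Of the Fabp5 UMIs in Mono, 75 and 50 lay in 2 diabetic cells with 0 Plac8 UMIs. All AP-1 subunits but Fosl1 (0.398, 1 UMI in Mono) were lower than in Mac, from 0.129 for Fosl2 to 0.437 for Junb.

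MoDC was not 1 uniform population. The secreted protein Retnla, a product of alternatively activated myeloid cells, had 3841 UMIs in control and 621 in diabetic MoDC, and cells held either many or almost none. At least 10 Retnla UMIs were present in 14 of 27 control cells (51.9%, 31.9 to 71.3) and in 6 of 30 diabetic cells (20%, 7.71 to 38.6), while 11 and 22 cells had 0. The gene and the threshold were chosen after the values were seen, and 3 and 2 cells lay near it, at 3 to 20 UMIs. A threshold of 3 UMIs gave 15 and 7 cells. In Mac 56 of 510 and 12 of 229 cells reached 10 UMIs. Depth was similar on both sides, with medians of 6877 and 6358 UMIs in control and 7369 and 7039.5 in diabetic cells above and below.

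The Retnla-rich cells carried most counts of several genes that set MoDC apart from Mac. Lyz1 lay in them with 931 of 931 control and 379 of 406 diabetic UMIs, Fn1 with 297 of 302 and 106 of 112, and Lpl with 109 of 111 and 46 of 49. Ear2 gave 70 of 75 and 47 of 62 and the chemokine Ccl6 843 of 923 and 221 of 341. Lyz2, the main myeloid lysozyme, was at 27722 and 28114 CPM in Retnla-rich and 2798 and 2526 in the remaining cells. These cells still held class II, with Cd74 at 28943 and 34866 CPM, and Ccr2 in 11 of 14 and 6 of 6 cells.

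The remaining MoDC, 13 control and 24 diabetic cells, held most Cd209a. It was there with 173 of 185 and 138 of 140 UMIs, although 4 and 7 of these cells had none, and only 1 of the 57 cells had both 10 Retnla and 5 Cd209a UMIs. Mgl2 gave 93 of 134 and 53 of 77 UMIs in these cells and Clec4b1 17 of 58 and 25 of 45, so other lectins were less one-sided. Plac8 (72 and 147 UMIs), Cd7 (28 and 49) and Ms4a4c (9 and 25) were found exclusively in these cells, with 0 UMIs in the 20 Retnla-rich ones. Napsa gave 76 of 89 and 113 of 119 UMIs. Cd74 stood at 58318 and 46724 CPM, above the Retnla-rich cells in each library. Without the Retnla-rich cells, 3 genes reversed against Mac: Lyz1 from 13.1 to 0.419 times, Fn1 from 9.91 to 0.415 and Lpl from 7.80 to 0.385.

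**Figure D2:**
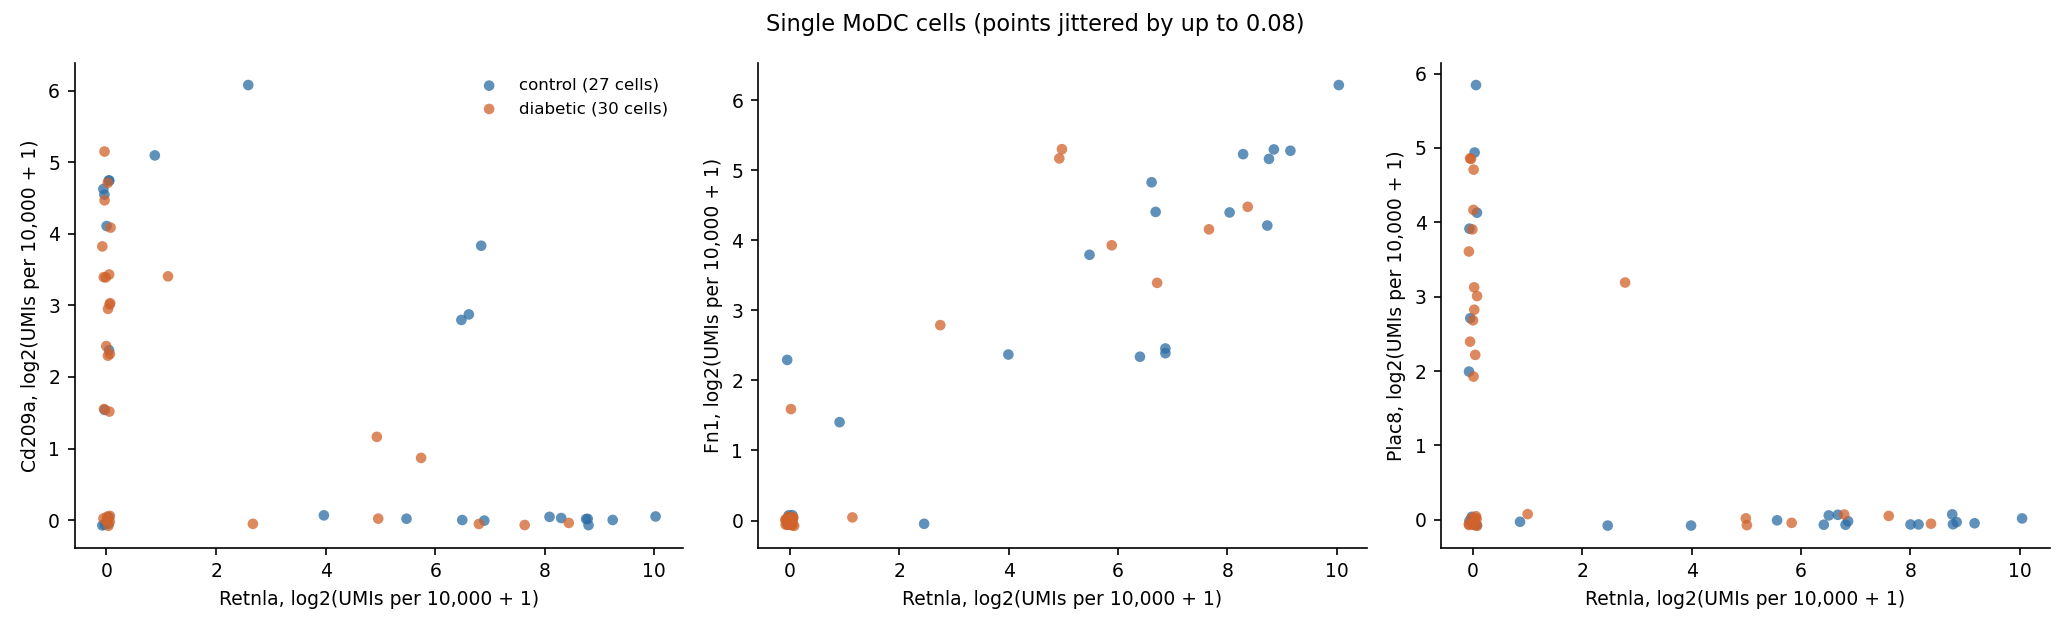
Each point is 1 MoDC, with Retnla on the horizontal axis and Cd209a, Fn1 or Plac8 on the vertical axis, all as log2 of UMIs per 10000 plus 1, with slight jitter and colour by library. Cells rich in Retnla (14 control, 6 diabetic) carry Fn1 and lack Plac8, and Cd209a lies almost wholly in the others.

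In the diabetic library Fcrls, Cd81, Cd14 and Ccl6 were lower in MoDC, and 36 of 83 ribosomal protein genes were higher. Here a gene counted where the ratio was at least 1.5-fold and its interval excluded 1. Of 1986 genes with at least 20 UMIs, 104 (5.24%) were higher and 217 (10.9%) lower in diabetic MoDC. With trimmed mean scaling these were 184 and 136, with scaling that leaves out mitochondrial, ribosomal and haemoglobin genes 130 and 124, and without the MoDC that hold markers of other cell types 88 and 144. The ribosomal protein genes were thus 36 of the 104. The median share of ribosomal protein UMIs per cell was 20.2% in control and 29.6% in diabetic MoDC, beside 16.2% and 20.2% in Mac, and its part in the ratios was not tested.

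Among the genes lower in diabetic MoDC, Fcrls had 175 control and 45 diabetic UMIs (ratio 0.224, 0.157 to 0.312), the tetraspanin Cd81 183 and 60 (0.285) and Cd14, the co-receptor for lipopolysaccharide, 267 and 106 (0.345). Ecm1, an extracellular matrix protein, had 141 and 35 (0.216), Ccl6 923 and 341 (0.321) and the actin-capping Capg 191 and 80 (0.364). Aldh1a2 had 23 UMIs in control and 2 in diabetic cells, Slamf8 36 and 7, Tppp3 176 and 74 and Mcub 76 and 29. Mac of the same libraries gave 0.501 for Fcrls, 0.483 for Cd81, 0.382 for Cd14, 0.771 for Ccl6 and 0.781 for Capg.

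The direction of Cd14, Cd81, Fcrls and Capg was also seen among cells with fewer than 10 Retnla UMIs, at 0.311, 0.342, 0.216 and 0.399. Ccl6 (0.757, 0.566 to 1.02) and Lyz2 (0.487 over all cells, 0.903 in these) did not reach the size rule there. Ecm1, with 2 UMIs in each library, was too sparse to compare there. Over all genes, 71 of the 217 lower and 34 of the 104 higher genes were called again without Retnla-rich cells, when 138 and 92 of them still had enough UMIs. Within the cells poor in Retnla, Cd209a (173 and 138 UMIs, ratio 0.402) and Mgl2 (93 and 53, ratio 0.288) were lower in the diabetic library, while Plac8, 1.78 times higher over all MoDC, had a ratio of 1.03 (0.772 to 1.39).

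Among the genes higher in diabetic MoDC, the phosphatase Ptpn18 had 24 control and 79 diabetic UMIs (2.86, 1.79 to 4.73), the cold-induced RNA-binding Rbm3 99 and 248 (2.18) and Ms4a6c 29 and 88 (2.64). The histone H2afz had 280 and 597 (1.85), Cox7a2l 71 and 176 (2.16), the ribosomal fusion gene Fau 733 and 1434 (1.70) and elongation factor Eef1b2 97 and 196 (1.76). Ifitm3, an interferon-induced membrane protein, had 392 and 712 (1.58), and 1.31 without the MoDC that hold markers of other cell types. Limd2 and the G protein subunit Gng2 rested on 4 and 5 control UMIs. Without Retnla-rich cells Ptpn18 (3.76), Rbm3 (2.13), Ms4a6c (1.97), H2afz (1.96), Cox7a2l (1.75), Fau (1.60) and Limd2 (3.53) still met the rule and Ifitm3 (1.36), Eef1b2 (1.49) and Gng2 (2.52, 0.845 to 10.1) did not. In Mac, Rbm3 was 1.58 times, Ptpn18 1.33 times and H2afz 1.35 times the control level.

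By list, class II had 1 of 11 genes lower in diabetic MoDC (H2-DMb2, 84 and 43 UMIs) and none higher, with a median log2 ratio of 0.06 against -0.13 over all genes. Of 9 genes of type 2 or monocyte-derived dendritic cells, 5 were lower (Cd209a, Mgl2, Tnip3, Ccl17 and H2-DMb2) and none higher. In Mac 4 of these 9 were higher and 1 lower. Cathepsin and lysosome genes were lower in 8 of 16 cases (median log2 ratio -0.60), among them Ctsb (183 and 129 UMIs, ratio 0.613) and Ctsd (123 and 79, ratio 0.559). Mac of the same libraries also had 8 of 16 lower and none higher (median log2 ratio -0.56), Ctsb and Ctsd among them. Of 12 chemokines 6 were lower and 4 higher, the latter led by single cells: 97.6% of diabetic Cxcl1, 86.4% of Cxcl10, 88.0% of Cxcl3 and 76.0% of Ccl5 UMIs lay in 1 cell each. Among the lower ones, 69.7% of all MoDC Ccl7 UMIs lay in 1 cell. Most MoDC UMIs of Ccl17, also counted among the dendritic genes above, likewise lay in 1 cell. The nuclear receptors Nr4a2 (10 and 29 UMIs) and Nr4a3 (16 and 40) were higher in diabetic MoDC and Egr1 (15 and 5) lower. The integrin chains Itgam (28 and 16) and Itgb2 (64 and 39) and their ligand Icam1 (38 and 17) were lower, 3 of 10 adhesion genes.

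**Figure D3:**
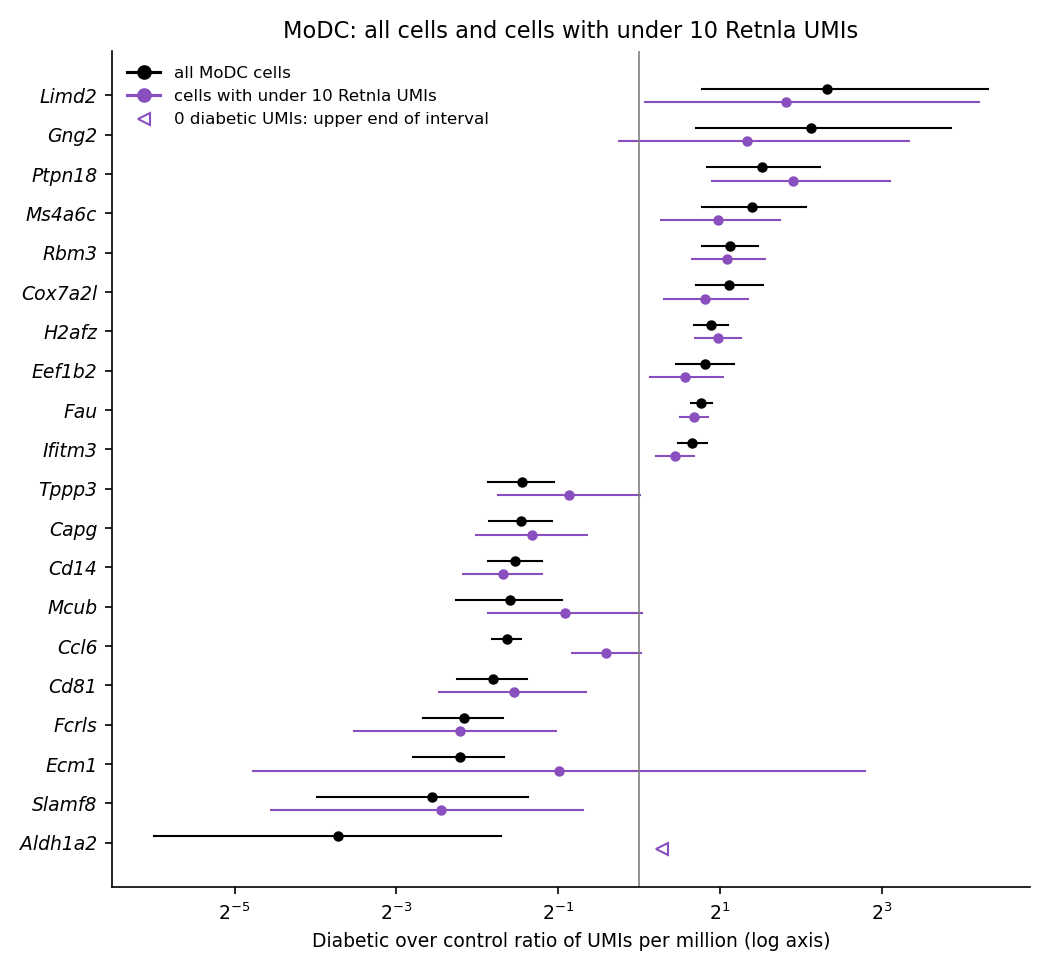
Diabetic over control ratio (log axis, with 95% counting interval) of the 20 genes named by rule in MoDC, in black over all cells and in purple over cells with fewer than 10 Retnla UMIs. An open triangle marks 0 diabetic UMIs, at the upper end of the interval. Cd14 is below 1 in both (0.345 and 0.311), while Ccl6 moves from 0.321 to 0.757.

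Mono also held more than 1 kind of cell. Plac8 reached at least 10 UMIs in 7 of 9 control and 11 of 19 diabetic cells, a threshold chosen after the values were seen, with 2 and 7 cells near it at 3 to 20 UMIs. The Plac8-rich cells had all or nearly all counts of Hp (35 of 35 and 49 of 50 UMIs), Ly6c2 (41 of 41 and 53 of 60) and Ms4a4c (32 of 32 and 21 of 23). Of the other 2 control and 8 diabetic cells, 2 and 4 held Spp1, osteopontin, a gene of lipid-laden plaque macrophages, and the other 4 diabetic cells had 0 Spp1 UMIs. The cells poor in Plac8 held 364 of 368 and 48 of 48 Spp1 UMIs, with 315 of the control UMIs in a single cell. Gpnmb (10 and 26 UMIs) and the elastase Mmp12 (31 and 42) were found in no Plac8-rich cell but not in every one of the others, and Fabp5 gave 133 of its 146 diabetic UMIs to 4 cells poor in Plac8. Lgals3, galectin 3, summed over the cells poor in Plac8, was at 11629 and 16101 CPM, with 177 of the 527 diabetic UMIs in 1 cell, and at 4538 and 5076 in Plac8-rich cells. H2-Eb1 was found in 3 control and 5 diabetic Mono, all of them Plac8-rich, and so was absent from most cells of both kinds.

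**Figure D4:**
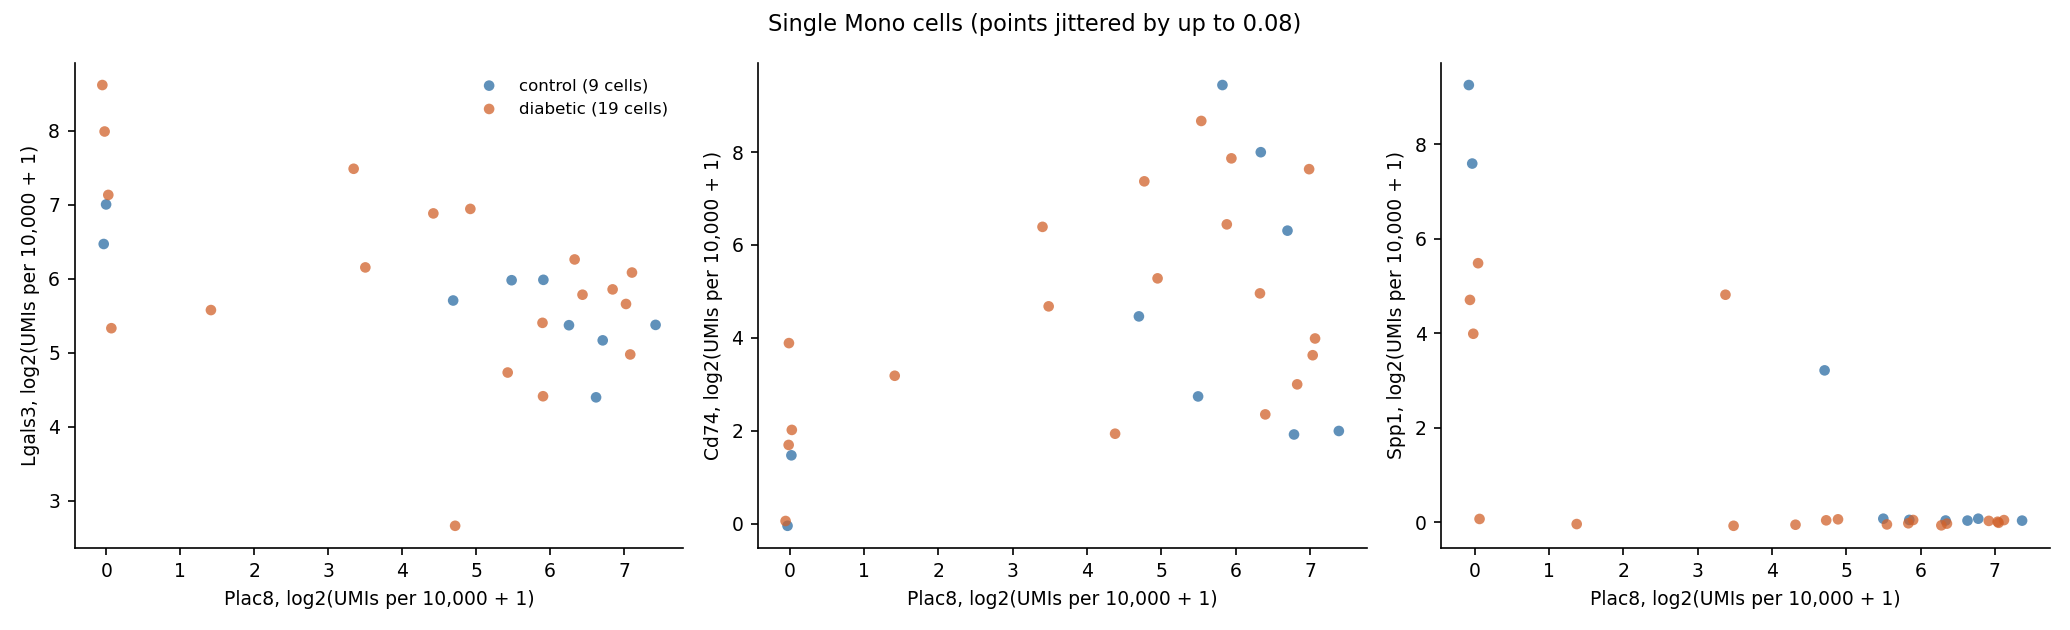
Each point is 1 Mono, with Plac8 on the horizontal axis and Lgals3, Cd74 or Spp1 on the vertical axis, as log2 of UMIs per 10000 plus 1, coloured by library. Spp1 lies in 2 control and 4 diabetic of the 10 cells with few Plac8 UMIs, and in 1 Plac8-rich control cell with 4 UMIs.

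With 9 control cells, Mono values by group are given for the fixed lists alone. Cd74 had 626 control and 592 diabetic UMIs (ratio 0.446), H2-Ab1 196 and 146 (0.351) and H2-Eb1 85 and 50 (0.278), and 5 of 8 class II genes were lower. One control cell held 432 of the 626 Cd74, 131 of the 196 H2-Ab1 and 68 of the 85 H2-Eb1 UMIs. With each gene's top cell left out, the median log2 ratio of the list moved from -1.29 to -0.26. The share of genes meeting the rule over all 767 measured in Mono was 7.17% higher and 8.6% lower. Of 12 antimicrobial and S100 genes 6 were higher and 1, Lyz2, lower. Chil3 had 23 and 91 UMIs (1.87, 1.17 to 3.09) and S100a4 41 and 183 (2.11), whereas the 97 diabetic S100a8 UMIs came from 2 cells. Gngt2 had 25 and 102 UMIs (1.92) and Fabp5 19 and 146 (3.63). Plac8 itself, at 241 and 422 UMIs, had a ratio of 0.826 (0.704 to 0.972), below the size rule. Among Plac8-rich cells alone Cd74 had a ratio of 0.539, H2-Ab1 0.447, Chil3 2.91, Gngt2 3.06 and Fabp5 0.814. The control cell with 432 Cd74 UMIs had 34 Plac8 UMIs and is among them, so the class II ratios of this subset still rest on it.

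Summed over both classes, 91 of 1793 genes (5.08%) were higher and 169 (9.43%) lower in the diabetic library. With trimmed mean scaling these were 121 and 131, and with scaling without mitochondrial, ribosomal and haemoglobin genes 116 and 105. The sum moved with the mix, since Mono were 9 of 36 control and 19 of 49 diabetic cells. Of the 10 genes furthest apart on the higher side, Limd2, Rbm3, H2afz, Gng2, Cox7a2l and Fau were also named in MoDC, joined by ferritin heavy chain Fth1 (2299 and 4864 UMIs, 1.61), Gngt2 (2.49), Msrb1 (2.09) and Tomm20 (3.49). On the lower side Fcrls, Cd81, Ecm1, Ccl6, Slamf8, Tppp3 and Mcub recurred, beside Lpl (0.355), Dok2 (0.328) and the complement activator properdin Cfp (0.419).

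Over all cells of a class, no AP-1 subunit met the rule between libraries in MoDC, in Mono or in their sum. In MoDC, Fos had 34 control and 60 diabetic UMIs (ratio 1.54, 0.992 to 2.41), Fosb 32 and 48 (1.30, 0.817 to 2.11), Junb 42 and 67 (1.39, 0.930 to 2.09), Jund 12 and 22 (1.59, 0.756 to 3.54) and Fosl2 14 and 18 (1.12, 0.526 to 2.43). Each of these intervals over all MoDC included 1, so no difference was detectable at this depth. Among MoDC with fewer than 10 Retnla UMIs, however, Fos had 3 control and 31 diabetic UMIs, a ratio of 5.21 (1.63 to 26.7) that met the rule, with 20 of the 31 UMIs in 1 of 9 cells. The other AP-1 subunits compared there, Fosb, Fosl2 and Junb, did not meet it. Jun (7 and 3 UMIs) and Fosl1 (3 and 3) were too sparse to compare. Mono held 8 and 11 UMIs of Fos, 2 and 6 of Fosb, 7 and 20 of Junb (1.35, 0.548 to 3.77), 6 and 1 of Jund, 1 and 2 of Jun, 1 and 1 of Fosl2 and 0 and 1 of Fosl1. In Mac, where 8.68% of 8448 genes were higher and 5.22% lower in diabetic cells, Jund was the 1 subunit that met the rule (525 and 359 UMIs, ratio 1.58, 1.38 to 1.81).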

How the data were processed

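Libraries of single aortic cells were used, 1 control and 1 diabetic, each from 4 pooled mice. Per the submitters' processing notes, reads were processed with Cell Ranger 3.1.0 and Partek (version not given) against mm10. The annotation release is not given in the sources used here. What the authors deposited are unnormalized UMI counts for each gene in each barcode, and the authors' class of each barcode came from their deposited annotation tables. No per-sample column was left unused (0). Barcodes without a class were left out of class sums. No doublet caller was run here.

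The members and lists were chosen with earlier results of these data known. UMIs were summed per class and library with Python 3.11.15, pandas 2.3.3 and SciPy 1.17.1 and scaled to CPM. Exact 95% intervals were Poisson for levels, Clopper-Pearson for shares and conditional binomial for ratios. With 1 library per group no p-value was computed. Genes were tested for size from 20 UMIs (30 against Mac), at 2-fold between classes and 1.5-fold between groups, where the sum of both classes needed 30 UMIs. A count of 0 was set to 3 UMIs for a bound. Named genes were the 12 (classes) or 10 (groups) each way whose interval bound nearest to 1 was furthest from it, seen in at least 10% of cells, with no cell above 25% of UMIs, leaving out mitochondrial, ribosomal, haemoglobin, sex-linked and unnamed genes. Members of fixed lists, the 4 markers and the AP-1 subunits were also named. Trimmed mean factors came from edgeR 4.0.16. The calling scripts were tested on simulated data.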

Additional observations from a re-analysis of the deposited data

Results flagged for a closer look

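Of the listed genes, 6 met the 1.5-fold rule between libraries in opposite directions in MoDC and Mono, and the difference between the 2 classes was not tested. Capg, an actin-capping protein, had a diabetic over control ratio of 0.364 in MoDC and 1.89 in Mono. The lysosomal protease Ctsz had 0.661 and 1.55, and S100a10, a calcium-binding adaptor, 0.624 and 1.96. Ms4a4c, a monocyte membrane protein, went the other way, with 2.42 in MoDC and 0.339 in Mono. All its MoDC UMIs lay in cells with fewer than 10 Retnla UMIs. Those were 13 of 27 control and 24 of 30 diabetic MoDC, and the part of this mix in the ratio was not tested. S100a8 (0.00503 and 15.3, the latter a lower bound) and S100a9 (0.00534 and 14.6), the neutrophil alarmins, rested on single cells: 1 control MoDC held all 173 control S100a8 UMIs, and 2 diabetic Mono held 97.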

How the results depend on the processing

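No paired analysis was possible because each group is 1 library. Counts of genes moved by more than 1.5 times in these cases, and the cause was not tested unless fewer cells, UMIs or a larger fold were asked for. Trimmed mean scaling, which shifted log2 ratios by 0.29 in MoDC against Mono, 0.23 in MoDC against Mac, -0.10 in Mono against Mac, 0.15 in MoDC by group and 0.31 in Mono by group, gave 257 higher and 134 lower for MoDC against Mono and 184 higher and 136 lower for MoDC by group. Weighting every cell equally was done without the interval rule, so fewer conditions had to be met. It gave 281 higher for MoDC against Mono, 1754 lower for MoDC against Mac and 516 and 1019 for Mono against Mac. By group it gave 228 and 451 for MoDC and 173 and 277 for the sum of both classes. Scaling without mitochondrial, ribosomal and haemoglobin genes gave 124 lower in MoDC and 105 lower in the sum. Thinning each cell to 1000 UMIs gave 42 and 37 of 370 measured genes in MoDC, 24 and 22 of them among the calls without thinning. In the sum it gave 29 and 25 of 377, 9 and 17 of them among those calls. A minimum of 60 UMIs gave 82 and 94 for MoDC against Mono, 64 and 106 for MoDC by group and 53 higher for the sum, and a minimum of 10 gave 141 and 273 for the sum. A 3-fold rule gave 101 and 101 for MoDC against Mono, 86 and 635 for MoDC against Mac and 147 higher for Mono against Mac. A 2-fold rule gave 49 and 139 in MoDC and 44 and 86 in the sum. Leaving out cells with markers of other types gave 144 lower in MoDC. Chosen after seeing the data, leaving out the Retnla-rich cells gave 49 and 126 in MoDC by group, and against Mac turned Lyz1 to 0.419, Fn1 to 0.415 and Lpl to 0.385. The rule of the same direction in each library could not apply to a single library. From a single library, the counts ranged from 85 to 102 higher and 126 to 201 lower for MoDC against Mono. Against Mac they ranged from 101 to 262 and 573 to 711 for MoDC, and from 218 to 242 and 157 to 281 for Mono. The control library alone gave the lowest of these for MoDC against Mono (both directions), for MoDC lower against Mac and for Mono lower against Mac, and the diabetic library alone the lowest for MoDC higher against Mac.

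Of the 112 calls on named genes, all held under trimmed mean scaling, under scaling without mitochondrial, ribosomal and haemoglobin genes and at a minimum of 10 UMIs. A minimum of 60 UMIs lost 19, and of the calls by group thinning to 1000 UMIs lost 24 and kept 13 and a 2-fold rule lost 8 and kept 32. The calls on Upb1, Ltb4r1, Cd177 and Sirpb1b needed both libraries, and of the class comparisons those on Lyz1 and Cd2 (against Mono) and on Upb1 and Aldh1a2 (against Mac) were lost without the Retnla-rich cells. Shares moved with the denominator: among myeloid classes MoDC were 4.65% and 10.2%, Mono 1.55% and 6.44% and both 6.20% and 16.6%, and of all diabetic barcodes both were 1.42%. Depth limits the AP-1 subunits and Ccr2, which had few UMIs, and 9 control Mono limit every Mono value by group.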

Other observations

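Some barcodes without a class held monocyte or dendritic genes. Of 1155 such control barcodes 53 (4.59%) and of 934 diabetic barcodes 54 (5.78%) had at least 3 UMIs from 3 genes of the classical monocyte list, and 53 and 55 had as many from the list of type 2 or monocyte-derived dendritic cells. Mac reached the same count for the monocyte list in 65 of 510 control and 38 of 229 diabetic cells. For the dendritic list it did so in 120 and 55 cells. Such counts thus do not mark the barcodes without a class as MoDC or Mono, and these barcodes entered no comparison.

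Haemoglobin and other erythroid genes reached at least 2 UMIs from 2 genes in 3 of 27 control and 22 of 30 diabetic MoDC, in 1 of 9 and 12 of 19 Mono, and in 60 of 510 and 166 of 229 Mac.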
